A study of Mus musculus with 2 samples.

Results

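Ceacam1, Ceacam10 and Cd177, 3 of the 27998 genes in the count tables, were followed through the cells of lung organoids grown with and without IL-1β. They were taken by symbol, and were proposed because of their levels in these same cells, so their values by class and library and their coexpression are a description and support no test. Lung AT2 cells were sorted from tamoxifen-treated Sftpc-CreERT2;R26RTomato mice and embedded in Matrigel together with lung stromal cells from culture. Expression of the surfactant gene Sftpc at the time of tamoxifen therefore set which cells were labelled, and both organoid libraries share the reporter, the tamoxifen and the stromal cells. The study's methods give the C57BL/6 strain for its lineage tracing and injury mice. They give an age of 6 to 10 weeks for most experiments, and neither is stated for the organoid mice by name. The control organoids received PBS. The treated organoids received IL-1β, at 10 ng/mL by the figure legend and 20 ng/mL by the culture methods. The series text gives 2 weeks of culture, whereas the legend gives day 21. Each condition was 1 droplet library, so IL-1β and the library cannot be told apart, and every interval below is a 95% interval of counting error alone.

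The Ceacam genes encode cell surface or secreted glycoproteins of the immunoglobulin superfamily. CEACAM1 is an adhesion molecule and inhibitory receptor of epithelia and leukocytes whose cytoplasmic tail recruits the phosphatases encoded by Ptpn6 and Ptpn11. CEACAM10 is a secreted member of the same family in the mouse. CD177 is no Ceacam protein but a membrane-anchored glycoprotein of the Ly-6 and uPAR superfamily, best known as a surface antigen of neutrophils that binds PECAM1 and the membrane-bound protease encoded by Prtn3.

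The 3 genes lie on chromosome 7 (GENCODE M21 on GRCm38). Cd177 (ENSMUSG00000052212) spans 24743983 to 24760311 on the minus strand, and Ceacam10 (ENSMUSG00000054169) spans 24777206 to 24784657 on the plus strand. These neighbours stand head to head, 16894 bp apart, and none of the genes in the count tables lies between them (0 genes). Ceacam1 (ENSMUSG00000074272) spans 25461707 to 25477603 on the minus strand. It lies 677049 bp beyond Ceacam10, with 29 genes of the tables in between. Its near copy Ceacam2 (ENSMUSG00000054385) begins 38438 bp further on.

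The start regions are shown because the closest pair in sequence differed from the closest pair on the chromosome. The sequences, from RefSeq on GRCm38.p6, run from 250 bases before the annotated start of transcription through the first 50 transcribed bases, 5′ to 3′ on the strand of the gene. Ceacam10 has 2 such windows, and the first listed was printed and used for the identities below. Its start of transcription is 24777167, ahead of the GENCODE gene start at 24777206. Those of Ceacam1 and Ceacam10 carry in capitals the longest run of bases they share, 114 bases. That of Cd177 carries in capitals a match to the NF-kB consensus and a match to TATAAA.

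Ceacam1 (chr7:25477576-25477875, minus strand): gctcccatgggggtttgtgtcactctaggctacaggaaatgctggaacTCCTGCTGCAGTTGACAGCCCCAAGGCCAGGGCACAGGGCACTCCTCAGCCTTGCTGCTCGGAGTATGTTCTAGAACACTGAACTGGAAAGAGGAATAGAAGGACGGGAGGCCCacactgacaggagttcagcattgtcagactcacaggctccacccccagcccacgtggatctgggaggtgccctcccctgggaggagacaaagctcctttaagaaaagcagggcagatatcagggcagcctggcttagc
Ceacam10 (chr7:24776917-24777216, plus strand): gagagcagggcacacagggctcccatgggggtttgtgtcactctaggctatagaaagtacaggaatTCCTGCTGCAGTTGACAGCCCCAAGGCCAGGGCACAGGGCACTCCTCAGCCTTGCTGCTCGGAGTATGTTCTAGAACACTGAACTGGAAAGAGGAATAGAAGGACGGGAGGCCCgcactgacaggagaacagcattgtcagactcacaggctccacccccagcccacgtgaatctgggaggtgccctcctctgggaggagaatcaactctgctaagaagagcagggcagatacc
Cd177 (chr7:24760262-24760561, minus strand): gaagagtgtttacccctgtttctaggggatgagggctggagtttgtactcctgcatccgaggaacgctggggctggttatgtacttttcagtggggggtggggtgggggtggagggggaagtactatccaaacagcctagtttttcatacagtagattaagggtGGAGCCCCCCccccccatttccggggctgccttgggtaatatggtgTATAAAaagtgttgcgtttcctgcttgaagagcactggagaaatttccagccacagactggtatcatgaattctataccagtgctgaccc

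The Ceacam1 and Ceacam10 start regions were identical at 82.8% of 320 aligned columns, gaps included. The identity was 49.2% for Ceacam1 against Cd177 and 46.8% for Ceacam10 against Cd177. The Ceacam1 and Ceacam2 start regions gave 50.7%, but their longest shared run was 21 bases, against 8 bases in both of the pairs with Cd177. That run began at -233 in Ceacam1 and at -103 in Ceacam2. Identity over windows fixed to the annotated starts therefore does not measure how alike the sequences around Ceacam1 and Ceacam2 are. The search for motifs covered both strands of these 300 bases, with no mismatch allowed. The Cd177 window held TATAAA on its own strand at position -40 from the start of transcription and the NF-kB consensus on the other strand at -86, and these matches did not overlap. TATAAA was found in 13.6% and the NF-kB consensus in 8.46% of the 32851 promoter windows of the same length. Neither was found in the windows of Ceacam1 and Ceacam10. TTCNNNGAA (the STAT motif, 8.30% of all windows), TGANTCA (AP-1, 7.81%) and TTGCNNAA (C/EBP, 10.8%) had no match in any of the 3 windows. A match of letters is not evidence of a binding site.

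There were 2101 barcodes and 33965848 unique molecular identifiers (UMIs) from control organoids, and 3066 barcodes and 41220175 UMIs from treated ones. With the study's cutoffs on genes and UMIs, 2083 control and 3059 IL-1β cells were kept, of which 1285 and 2581 were epithelial. The libraries shared 11 barcodes. Clusters were named by marker genes, with the members, their family and their partner genes left out of the clustering. The classes used here were AT2-like cells (831 control, 1595 IL-1β), cells like the damage-associated transient progenitors that the study calls DATPs (26 and 587), AT1-like cells (268 and 341), a cluster led by Scgb3a1 and Ccl20 (1 and 51) and stromal cells (798 and 478). The study also tells primed AT2 cells (pAT2) from other AT2 cells in its organoids, and reports a larger pAT2 fraction with IL-1β. The naming used here had no pAT2 class, so the AT2-like class does not separate these states. Within a class the libraries fell into different clusters. Of the 831 control AT2-like cells, 816 formed a cluster with 0 IL-1β cells, and the IL-1β AT2-like cells lay in 3 others. Of the control AT1-like cells 265 shared a cluster with 6 IL-1β cells, and of the control DATP-like cells 25 shared one with 1 IL-1β cell. Comparisons of the libraries within these 3 classes are therefore mainly between cells of different clusters. Median depth in AT2-like cells was 13992 UMIs in control and 11511 in IL-1β. For each class the UMIs of a gene were added up and given per 1000000 UMIs of that class (CPM). These levels come from the 3′ ends of transcripts and were not divided by gene length, so they are compared between cells for 1 gene and not between genes. Sftpc, a marker that entered the naming of the AT2-like clusters, stood at 100814 CPM in control and 73946 CPM in IL-1β AT2-like cells. It was also high in IL-1β DATP-like cells (47529 CPM) and in an unnamed control cluster led by Scgb1a1 (106955 CPM), and was at 4328 CPM in IL-1β stromal cells.

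In AT2-like cells all 3 genes were higher in the IL-1β library. All 3 passed a 2-fold difference, as did 9.05% of the 12403 genes with at least 20 UMIs over both libraries. Since the genes were chosen on these values, nothing is read from that count. The median log2 ratio of all genes tested was 0.097.

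Ceacam10, the secreted family member, gave 2 UMIs in 2 of the 831 control AT2-like cells, which is 0.164 CPM (0.0199 to 0.593). In the 1595 IL-1β AT2-like cells it gave 693 UMIs, or 36.2 CPM (33.5 to 39.0). The ratio was 220.3 (60.8 to 1823), wide because of the 2 control UMIs. The interval of the control level overlaps that of control stromal cells, where 2 UMIs gave 0.147 CPM (0.0178 to 0.530). The IL-1β UMIs were in 231 cells (14.5%, 12.8 to 16.3 by the exact interval), of which 89 held 1 UMI, 52 held 2 and 90 held 3 or more. The highest cell held 23.

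Cd177, the neutrophil antigen, gave 84 UMIs and 6.90 CPM (5.50 to 8.54) in control AT2-like cells. In IL-1β AT2-like cells it gave 1364 UMIs and 71.2 CPM (67.5 to 75.1), a ratio of 10.3 (8.28 to 13.0). The control value leaned on a single cell, which held 41 of the 84 UMIs. Without the cell of the most Cd177 UMIs in each library the control level was 3.54 CPM, the IL-1β level was 69.5 CPM, and the log2 ratio moved from 3.37 to 4.29. Cells with Cd177 numbered 15 of 831 (1.81%) in control and 325 of 1595 (20.4%) in IL-1β. Positive cells held 5.60 UMIs each on average in control and 4.197 in IL-1β. Without the highest cell of each library these means were 3.07 and 4.10.

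Ceacam1, the adhesion molecule and inhibitory receptor, gave 186 UMIs and 15.3 CPM (13.2 to 17.6) in control AT2-like cells. In IL-1β AT2-like cells it gave 695 UMIs and 36.3 CPM (33.6 to 39.1), a ratio of 2.38 (2.02 to 2.81). It was in 161 control cells (19.4%) and 535 IL-1β cells (33.5%). At Leiden resolution 0.5 the control AT2-like class shrank to 3 cells with 1 Ceacam1 UMI, and the log2 ratio of 1.25 became -0.44 (-2.92 to 4.87). The transcripts of Ceacam1 and Ceacam2 nearly coincide at their ends. Of the 403 windows of 98 bases in the last 500 bases of the longest Ceacam1 transcript, 379 (94.0%) also occur in a Ceacam2 transcript. Over the 11 Ceacam1 transcripts the share ran from 0% to 94.0%. Reads from such windows cannot be assigned to either gene, so the Ceacam1 count is uncertain in both libraries. Ceacam10 and Cd177 had no such window in common with the family (0 of 403 each).

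Because deeper cells give more positive calls, every cell was also thinned to 4500 UMIs. The thinned share of positive AT2-like cells was 6.62% (5.02 to 8.53) in control and 14.9% (13.2 to 16.8) in IL-1β for Ceacam1. For Ceacam10 it was 0 of 831 cells, which allows up to 0.361%, against 8.65% (7.32 to 10.1). For Cd177 it was 1.08% (0.496 to 2.05) against 12.4% (10.8 to 14.1). Stromal cells were taken as the background, on the assumption that they lack these genes. A few of them carried endothelial markers (in IL-1β, 168 Emcn UMIs in 5 cells and 71 Cdh5 UMIs in 8 cells). Control stromal cells also held leukocyte and macrophage markers that were scarce in IL-1β stromal cells. These were Mrc1 (97 control and 0 IL-1β UMIs), Fcer1g (93 and 6), Tyrobp (76 and 1), Csf1r (68 and 5) and Adgre1 (28 and 0), whereas Cd68 had 136 and 161. The cells taken as background thus differed in makeup between the libraries. In the IL-1β library 2.09% of thinned stromal cells held a Ceacam1 UMI, 1.05% a Ceacam10 UMI and 2.51% a Cd177 UMI. Without thinning these shares were 5.44%, 2.51% and 5.02%, at a median of 14828 UMIs per stromal cell. The intervals of the IL-1β AT2-like and stromal shares do not overlap for any of the 3 genes. In the control library 0 thinned stromal cells of 798 held Ceacam1 or Cd177 and 1 held Ceacam10, and without thinning 0.376% held Ceacam1, 0.251% Ceacam10 and 0% Cd177, at a median of 15741 UMIs.

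**Figure D1:**
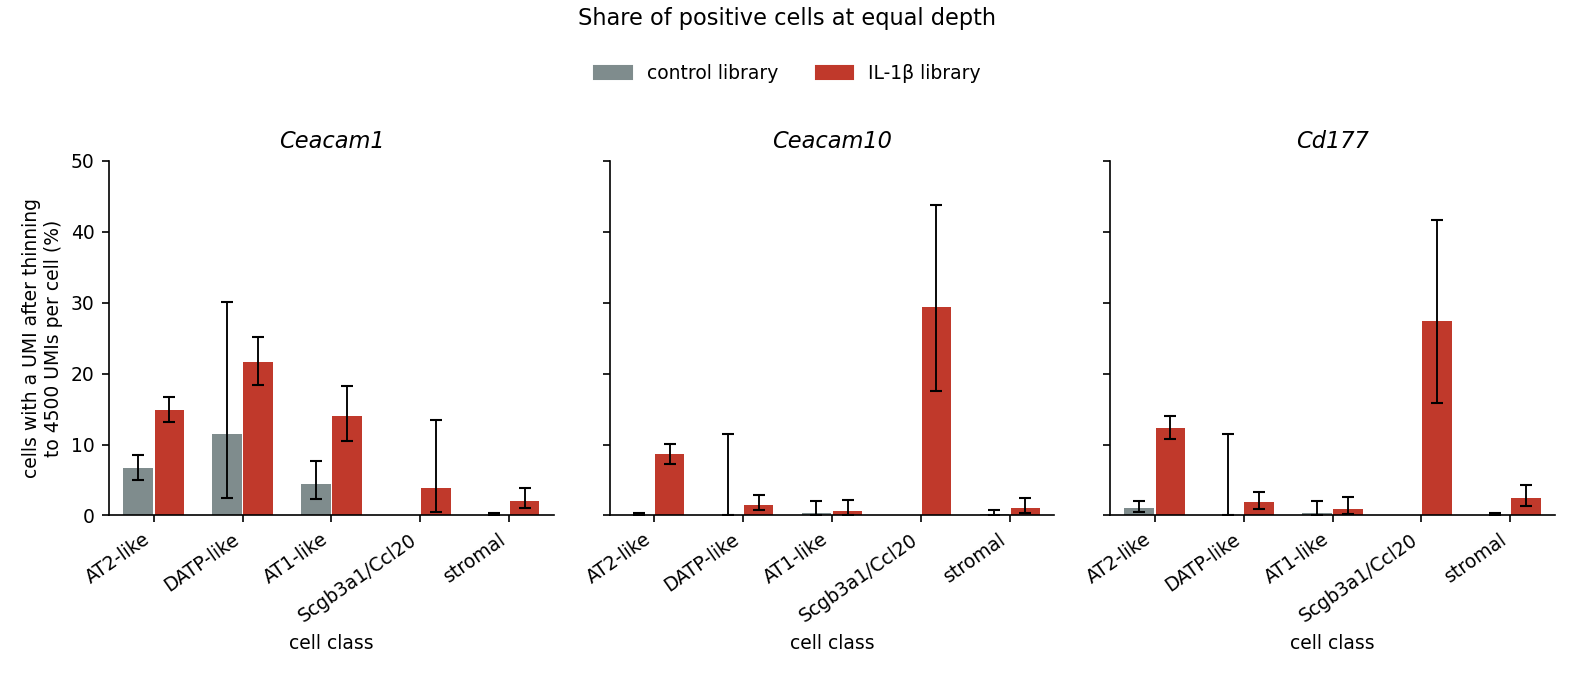
Share of cells with at least 1 UMI of each gene after thinning to 4500 UMIs per cell (y axis, percent) by cell class (x axis), control in grey and IL-1β in red, with exact 95% binomial intervals; for a share of 0 the bar marks the limit of 3 counts. Groups under 20 cells are not drawn. For Ceacam10 and Cd177 the tall bars are the IL-1β AT2-like cells (8.65% and 12.4%) and the 51 cells of the Scgb3a1 and Ccl20 cluster (29.4% and 27.5%), while Ceacam1 is tallest in IL-1β DATP-like cells (21.6%).

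The spread over single cells differed between the genes. In IL-1β AT2-like cells the tenth of cells with the most UMIs of a gene held 89.8% of all Ceacam10 UMIs and 86.5% of all Cd177 UMIs, against 46.0% for Ceacam1. Ceacam1 was found in more cells but at low counts, with 405 of its 535 positive cells at 1 UMI, 21 cells at 3 or more and a highest count of 7. Cd177 had 121 cells at 3 or more UMIs and a highest count of 35. The cells positive for Cd177 were deeper (median 13101 UMIs) than the rest (11185.5), and the same held for Ceacam10 (13182 against 11329.5) and Ceacam1 (12997 against 10772.5). These gaps in depth are why the shares above were thinned.

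Across the classes of the IL-1β library, Ceacam10 and Cd177 were highest in the Scgb3a1 and Ccl20 cluster and in AT2-like cells, whereas Ceacam1 was found in every epithelial class. For Ceacam10 the order was the Scgb3a1 and Ccl20 cluster (148 CPM, 123 to 175), AT2-like (36.2), DATP-like (4.30, 2.84 to 6.26), AT1-like (2.56, 1.32 to 4.47) and stromal cells (1.90, 1.12 to 2.996). The first 2 steps are larger than the counting error, and the last 3 classes have overlapping intervals. The share of cells with Ceacam10 was 3.23% in AT1-like, 3.24% in DATP-like and 2.51% in stromal cells. Whether the UMIs of the first 2 classes were background was not tested.

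For Cd177 the order was the Scgb3a1 and Ccl20 cluster (166 CPM, 140.0 to 195), AT2-like (71.2), DATP-like (5.74, 4.02 to 7.94), stromal (3.05, 2.05 to 4.39) and AT1-like cells (2.56, 1.32 to 4.47). Again the first 2 steps exceed the counting error and the intervals of the last 3 classes overlap. For both genes, overlap of intervals does not show that the levels are equal. The stromal levels of both genes in the IL-1β library were of the size that AT2 transcripts reached there. Stromal cells held 5.24% of the AT2-like level of Ceacam10 and 4.29% of that of Cd177, beside 5.85% for Sftpc, 5.42% for Lyz2 and 6.70% for Napsa, which are AT2 transcripts. For Ceacam1 the stromal level was 7.83% of the AT2-like level. In the stromal class the UMIs were 2 and 18 for Ceacam10, 0 and 29 for Cd177 and 3 and 27 for Ceacam1, in control and IL-1β in that order. All 3 passed 2-fold in stromal cells, as did 5.35% of 12854 genes.

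For Ceacam1 the order in IL-1β was DATP-like (63.4 CPM, 57.4 to 70.0), AT1-like (37.7, 32.4 to 43.7), AT2-like (36.3, 33.6 to 39.1), the Scgb3a1 and Ccl20 cluster (24.8, 15.5 to 37.5) and stromal cells (2.84, 1.87 to 4.14). AT1-like and AT2-like cells do not differ beyond counting error, nor do AT2-like cells and the Scgb3a1 and Ccl20 cluster. In AT1-like cells Ceacam1 went from 44 UMIs and 11.3 CPM (8.24 to 15.2) in control to 177 UMIs and 37.7 CPM in IL-1β, a ratio of 3.33 (2.38 to 4.74). Of the 10844 genes tested in AT1-like cells, 5.96% were at least 2-fold higher. In DATP-like cells the comparison turned on 1 cell. The 26 control cells gave 40 UMIs and 106 CPM (75.6 to 144), but 29 of these UMIs were in a single cell, and the ratio of IL-1β to control was 0.599 (0.432 to 0.852). Without that cell control stood at 32.5 CPM (16.2 to 58.1) and the ratio was 1.95 (1.08 to 3.94). In DATP-like cells the direction thus turned with that cell.

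The control DATP-like cells held no UMI of Ceacam10 or Cd177. In 26 cells a count of 0 allows up to 7.94 CPM, more than the 4.30 and 5.74 CPM of the IL-1β DATP-like cells, so a difference was not detectable at this depth. In AT1-like cells Ceacam10 went from 1 to 12 UMIs, a ratio of 9.92 (1.47 to 424), and Cd177 from 2 to 12 UMIs, a ratio of 4.96 (1.10 to 45.6). Both IL-1β levels there overlap the stromal background (Cd177 in 3.23% of AT1-like and 5.02% of stromal cells), so these ratios are not read as a difference between AT1-like cells.

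**Figure D2:**
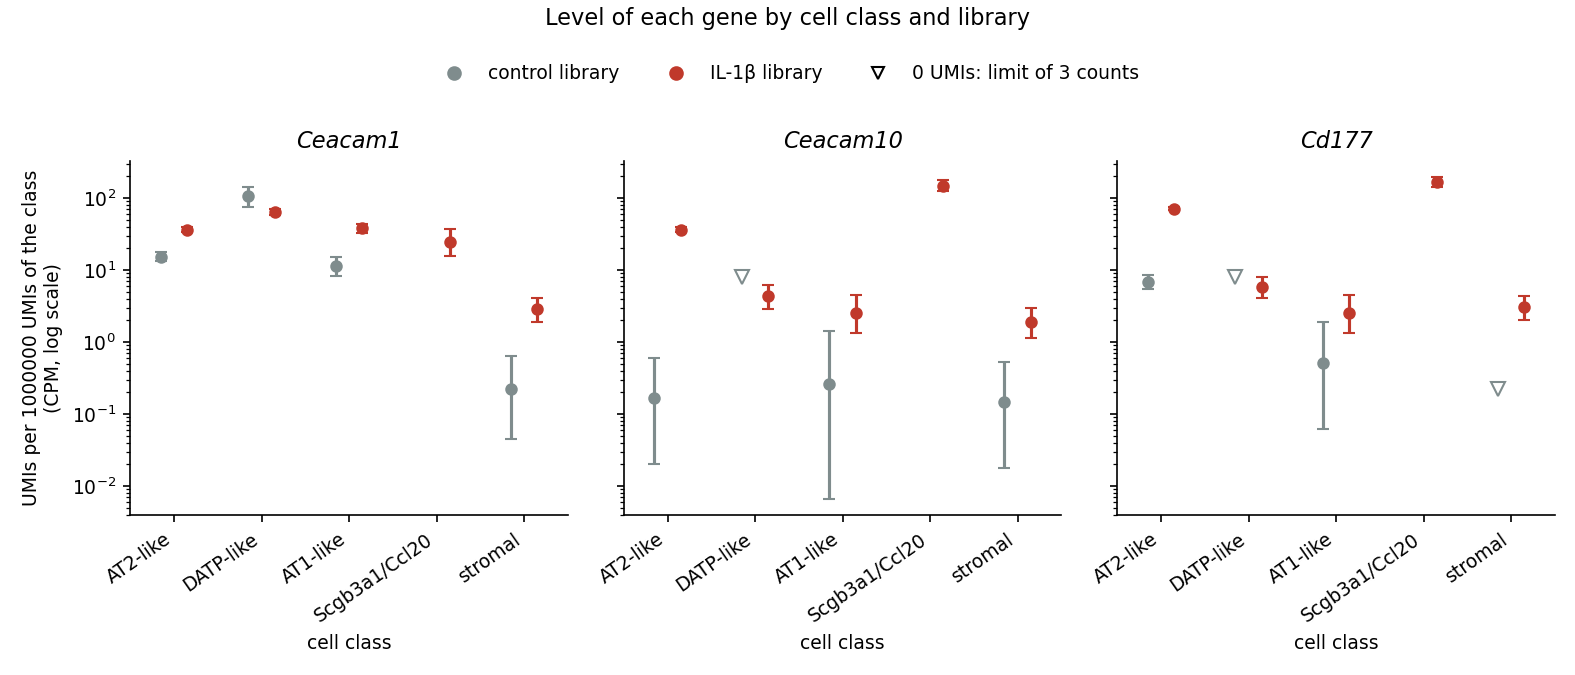
UMIs of each gene per 1000000 UMIs (CPM, log axis) by cell class, control in grey and IL-1β in red, with exact 95% Poisson intervals; open triangles mark the limit of 3 counts for a class with 0 UMIs. Classes under 20 cells are not drawn. In IL-1β cells Ceacam10 and Cd177 stand highest in the Scgb3a1 and Ccl20 cluster (148 and 166 CPM), then AT2-like cells (36.2 and 71.2 CPM), while Ceacam1 stands highest in DATP-like cells (63.4 CPM). The grey Ceacam1 point of the DATP-like class rests on 26 cells.

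The 1595 IL-1β AT2-like cells fell into 3 clusters, led by Gstm1 (658 cells), by Cxcl5 and Cd83 (517 cells) and by Meg3 and Fgl1 (420 cells). Cd177 differed between them, at 102 CPM (95.6 to 110), 56.0 CPM (50.2 to 62.2) and 36.5 CPM (31.2 to 42.4). Between these 3 clusters Ceacam10 did not differ beyond counting error, at 34 CPM (30.1 to 38.2), 37.7 CPM (33.1 to 42.9) and 38.0 CPM (32.6 to 44.0). Ceacam1 stood at 35.2, 43.2 and 29.0 CPM in the same order. Cd177 was among the 10 leading genes of the Gstm1 cluster although it had been left out of the clustering. The thinned share of Cd177-positive cells followed its level, at 16.9%, 10.3% and 7.86%. Ceacam10 was not even when all cells were clustered together with the stromal cells. It and Cd177 were then among the 10 leading genes of a cluster of mostly AT2-like cells. Ceacam10 stood there at 47.5 CPM (43.7 to 51.5) in 984 IL-1β cells. Other large IL-1β clusters mixed AT2-like with DATP-like cells. They held Ceacam10 at 14.4 CPM (11.7 to 17.6, 625 IL-1β cells) and 8.03 CPM (5.86 to 10.7, 525 IL-1β cells).

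In the IL-1β library, DATP-like cells formed one cluster led by Cxcl10 and other interferon-response genes (307 cells) and one led by Ndufa4l2 and Sprr1a (279 cells). The first had no DATP marker among its 10 leading genes. When all cells were clustered together, 263 of its cells shared a cluster with 323 cells of the Cxcl5 and Cd83 AT2-like cluster. Its separation from AT2-like cells thus depended on the clustering. Ceacam1 stood at 57.8 CPM (49.97 to 66.4) in the first and 70.4 CPM (61.0 to 80.9) in the second, with overlapping intervals. Ceacam10 and Cd177 were low in both, at 4.69 and 3.52 CPM in the first and 3.86 and 8.41 CPM in the second. Sftpc in these clusters was still 48209 and 46854 CPM. The interval of Cd177 in the second (5.39 to 12.5 CPM) lies above that of IL-1β stromal cells (2.05 to 4.39 CPM). The other 3 of these low levels overlap the stromal interval of the same gene. Of the 24 Cd177 UMIs in the second cluster, 8 were in 1 cell. Without that cell all IL-1β DATP-like cells stood at 4.48 CPM of Cd177 (2.97 to 6.47), which overlaps the stromal interval.

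**Figure D3:**
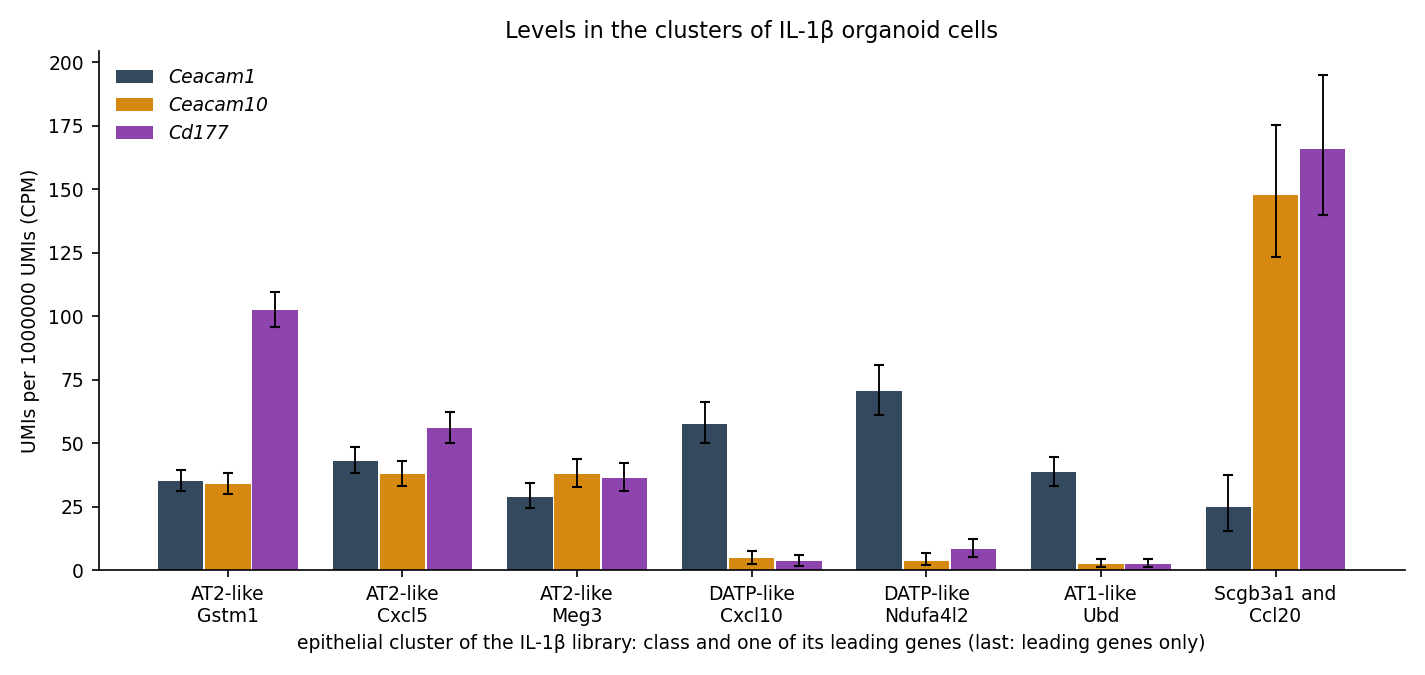
CPM of Ceacam1, Ceacam10 and Cd177 (y axis) in the epithelial clusters of the IL-1β library, each named by its class and one of its leading genes, the last by its leading genes alone (x axis), with exact 95% Poisson intervals. Heights are to be compared within a gene. In this clustering Cd177 steps down from 102 to 56.0 to 36.5 CPM over the AT2-like clusters. Ceacam10 is level over the same clusters at 34 to 38.0 CPM. Ceacam1 is highest in the DATP-like clusters at 57.8 and 70.4 CPM.

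The cluster led by the secretory genes Scgb3a1 and Scgb3a2 and the chemokine gene Ccl20 held 51 IL-1β cells and 1 control cell, so it was not compared with control. Of 10 airway markers 8 had a UMI in its IL-1β cells, and the list summed to 17540 CPM, beside 34.4 CPM in IL-1β AT2-like cells. Each marker counted here was in a minority of cells, Scgb3a1 in 18 of the 51, Scgb1a1 in 12, Reg3g in 9, Bpifa1 in 8 and Scgb3a2 in 5. The cluster is therefore called by its leading genes and not as an airway class. Its median depth was 16904 UMIs. Of its 51 IL-1β cells, 18 held Ceacam10 (131 UMIs) and 19 held Cd177 (147 UMIs), and 11 and 12 of them held 3 or more UMIs. Ceacam1 was in 16 of the 51 cells with 22 UMIs. The cluster was not uniform. When all cells were clustered together before the stromal cells were set aside, 30 of the IL-1β cells fell with a cluster led by Ccl20, Serpinb1a and Spib, and 8 with a cluster led by Bpifa1 and Scgb3a1. The Ccl20 cluster held Ceacam10 at 226 CPM (184 to 273) in 12 of 30 cells and Cd177 at 260 CPM (216 to 311) in 14 of 30 cells, which is 105 and 121 UMIs, and no airway marker was among its 10 leading genes. The Bpifa1 cluster held 0 Ceacam10 UMIs and 1 Cd177 UMI in 8 cells, where a count of 0 allows up to 15.2 CPM.

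Ceacam10 and Cd177 were found in the same IL-1β AT2-like cells more often than the product of their shares gives. After thinning, 138 cells held Ceacam10, 197 held Cd177 and 46 held both, against 17.0 by the product of the shares. The ratio was 2.70 (1.98 to 3.60), and it was 2.65 when the product was taken within each cluster. Of the cells with Ceacam10, 33.3% held Cd177, against 10.4% of the cells without it. Without thinning 114 cells held both against 47.1, a ratio of 2.42 (1.998 to 2.91). Cells with both did not stand out by doublet score. Their median scrublet score was 0.113, beside 0.130 for all IL-1β AT2-like cells, and 4 of 114 were among the highest 5% of the library, beside 96 of 1595. The score marks mixtures of unlike cells, so it cannot decide whether droplets with several AT2-like cells added to the count.

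Ceacam1 showed no such excess with either gene. It was found with Ceacam10 in 19 cells against 20.6, a ratio of 0.923 (0.556 to 1.44), and with Cd177 in 26 cells against 29.4, a ratio of 0.884 (0.578 to 1.30). Of the 1595 cells, 1106 held none of the 3 genes after thinning and 7 held all of them. In the Scgb3a1 and Ccl20 cluster 8 of 51 held both Ceacam10 and Cd177, against 4.12, and the ratio of 1.94 (0.839 to 3.83) is within counting error of 1. In control AT2-like cells no thinned cell held Ceacam10, so the pair could not be examined at equal depth. Without thinning, 2 control cells held Ceacam10, 15 held Cd177 and 1 held both, against 0.036, which is too few to read.

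**Figure D4:**
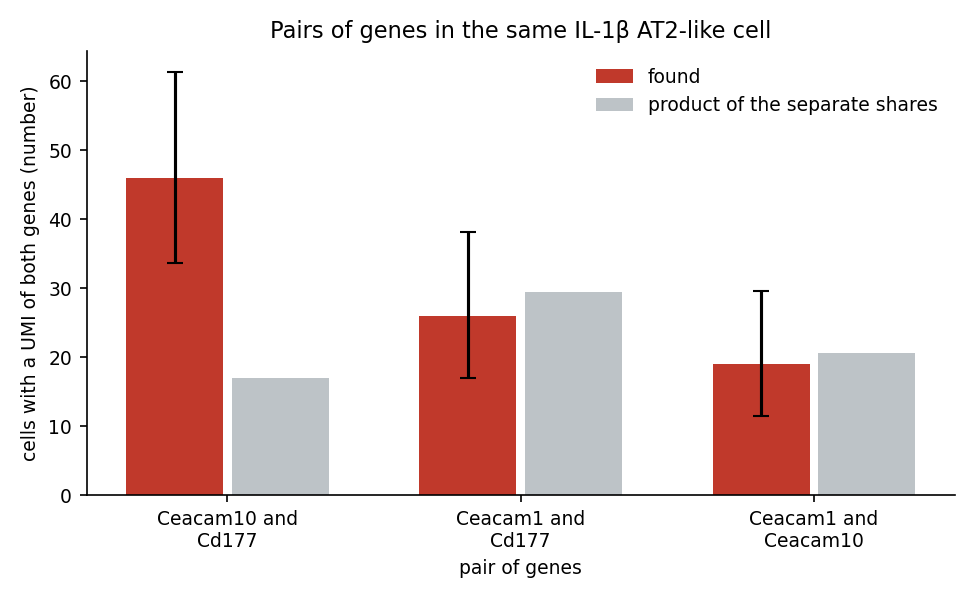
Number of IL-1β AT2-like cells (of 1595, thinned to 4500 UMIs) with a UMI of both genes of a pair (red, with exact 95% Poisson intervals) beside the number given by the product of their separate shares (grey). Ceacam10 and Cd177 were together in 46 cells against 17.0, while the pairs with Ceacam1 lay close to the grey bars (26 against 29.4, and 19 against 20.6).

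The genes whose thinned log counts went most closely with Ceacam10 over these 1595 cells were Lcn2 (Pearson r 0.181), Il4i1 (0.169), Cd177 (0.160), Pglyrp1 (0.160), Chil1 (0.159) and Pigr (0.140), among 4617 genes found in at least 10% of cells. Lcn2 encodes an iron-scavenging antibacterial protein, Pglyrp1 a protein that binds bacterial peptidoglycan and Pigr the receptor that carries immunoglobulin across epithelia. For Cd177 they were Dmkn (0.152), Cxcl5 (0.148), Phgdh (0.143), Lcn2 (0.134) and Cxcl15 (0.127), and Ceacam10 could not appear because it was found in only 8.65% of cells. Cxcl5 and Cxcl15 encode chemokines. No gene reached 0.1 with Ceacam1, for which the highest was Ak3 (0.0992) and the lowest Lyz2 (-0.094). All of these correlations are weak, the points are cells of 1 library, and counts this sparse hold any r near 0.

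Of the wider family, 15 Ceacam genes have a row in the tables. In AT2-like cells 12 of them were at 0 UMIs in both libraries, and Ceacam2 had 6 control UMIs and 0 IL-1β UMIs, a count as uncertain as that of Ceacam1 because of the shared transcript ends. Of the 13 related Psg genes, which encode pregnancy-specific glycoproteins, 11 were at 0 in both libraries and none had 20 UMIs. Of 15 genes for binding or signalling partners of CEACAM1, 13 had at least 20 UMIs in AT2-like cells. Among these 1 was at least 2-fold lower in IL-1β, the receptor gene Egfr (ratio 0.212, 0.128 to 0.340, from 72 and 24 UMIs), beside 4.87% of all genes lower. The phosphatase genes Ptpn6 (10.7 and 11.2 CPM) and Ptpn11 (38.5 and 36.4 CPM) and the kinase gene Src (23.8 and 24.6 CPM) had intervals of the ratio that include 1, and Lyn, another kinase gene, had a ratio of 1.56 (1.27 to 1.94). The median log2 ratio of the 13 was 0.046, beside 0.097 for all genes. Of the 4 partners of CD177 only Pecam1 reached 20 UMIs in AT2-like cells, at 1.31 CPM in control and 1.62 CPM in IL-1β. In stromal cells 3 of the 4 reached 20 UMIs. Prtn3 had 199 control and 11 IL-1β UMIs there (ratio 0.079, 0.039 to 0.145). Pecam1 went the other way, with 27 and 69 UMIs (ratio 3.67, 2.32 to 5.96).

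Neighbouring genes were examined because Cd177 and Ceacam10 adjoin. Of 40 genes around the members, 20 had at least 20 UMIs in AT2-like cells. Among them 1 was at least 2-fold higher in IL-1β, Ethe1 (ratio 2.06, 1.59 to 2.70), a mitochondrial dioxygenase gene, beside 9.05% of all genes, and 0 were 2-fold lower, beside 4.87%. Cxcl17, the neighbour of Ceacam1 and a mucosal chemokine gene, had a ratio of 1.90 (1.68 to 2.16). The median log2 ratio of the 20 was 0.37, above the 0.097 of all genes, and all 20 lay below the ratios of Cd177, Ceacam10 and Ceacam1, which were chosen for theirs.

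**Figure D5:**
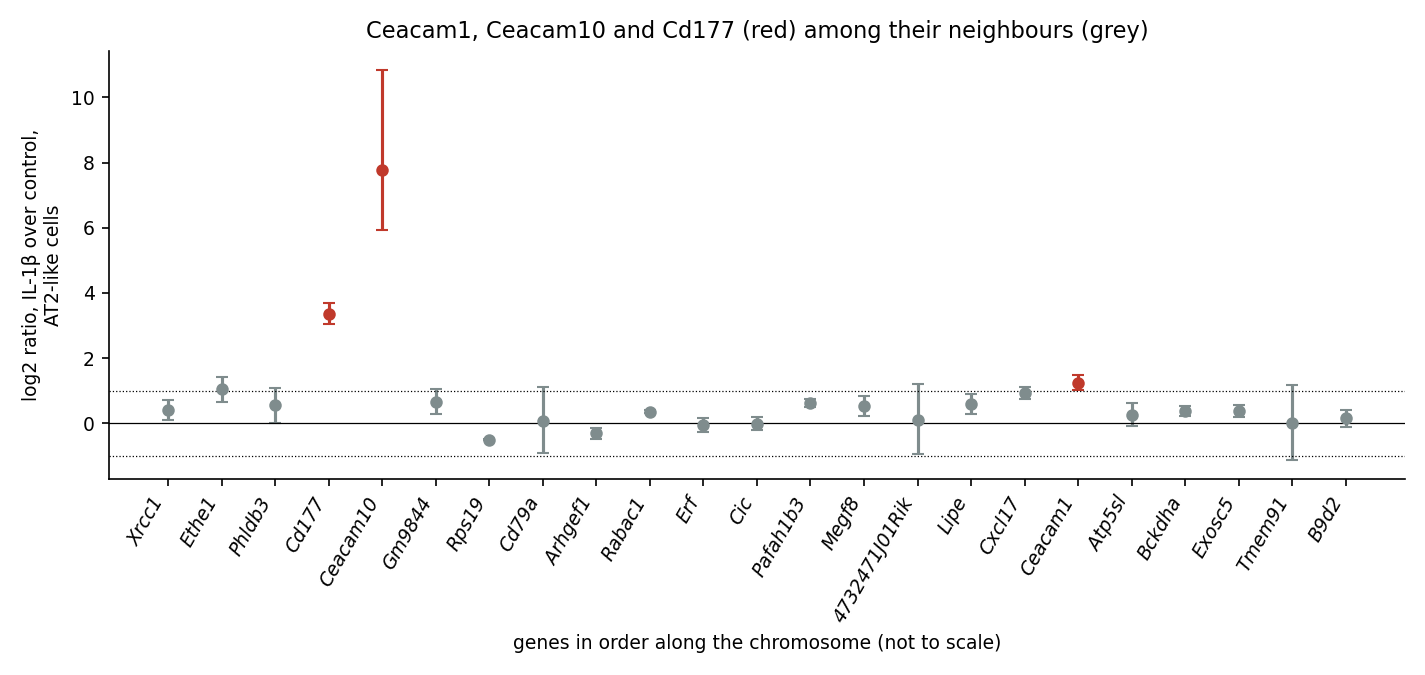
Log2 ratio of IL-1β over control in AT2-like cells (y axis) for Cd177, Ceacam10 and Ceacam1 (red) and the 20 neighbouring genes with at least 20 UMIs (grey), in their order along the chromosome and not to scale, with exact 95% intervals. Dotted lines mark 2-fold. Cd177 (3.37) and Ceacam10 (7.78) stand side by side far above the genes around them, and Ceacam1 (1.25) is next to Cxcl17 (0.93).

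Since CD177 is a neutrophil antigen, the neutrophil markers were read in the same cells. Of 12 markers S100a9 and Mpo were at 0 UMIs in AT2-like cells of both libraries, and the 12 together summed to 1.40 CPM in control and 7.99 CPM in IL-1β. Most of that was S100a8 (8 and 89 UMIs) and Camp (3 and 27 UMIs). In IL-1β AT2-like cells S100a8 stood at 4.65 CPM and Camp at 1.41 CPM. Stromal cells held more of both, S100a8 at 14.7 CPM in control and 58.8 CPM in IL-1β, and Camp at 3.45 and 24.2 CPM. Whether the AT2-like UMIs of these genes came from stromal cells was not tested. Among the 325 IL-1β AT2-like cells with Cd177, none held a UMI of Ly6g, S100a9, Mpo or Elane (0 cells each), and the pan-leukocyte gene Ptprc was in 1 cell. Of the 1270 cells without Cd177, 0 held Ly6g, S100a9 or Mpo, 1 held Elane and 4 held Ptprc. These genes were thus nearly absent with or without Cd177, and their zeros say nothing particular about the cells with it. S100a8 was in 15 of them (4.62%), beside 5.12% of the 1270 cells without Cd177. Camp was in 4 (1.23%) beside 1.73%, Cxcr2 in 4 (1.23%) beside 0.709%, Mmp8 in 4 (1.23%) beside 0.787% and Ltf in 2 (0.615%) beside 0.236%. Csf3r and Retnlg were in 1 cell each (0.308%), beside 0 and 1 of the 1270 cells, and Ngp in 0 beside 1. In the Scgb3a1 and Ccl20 cluster of the IL-1β library the 12 markers summed to 461 CPM, mostly Ltf (398 UMIs in 10 cells). There Ltf was in 1 of the 19 cells with Cd177 and in 9 of the 32 without it. The part of these markers in the Cd177 result was not tested. Of 8 leukocyte and macrophage markers Adgre1 was at 0 in both libraries. Cd68 had a ratio of 5.55 (4.44 to 7.02) and was in 33.2% of the cells with Cd177 and 35.1% of those without, while Fcer1g had 21 control and 3 IL-1β UMIs.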

How the data were processed

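Single-cell RNA-seq was made from 1 control and 1 IL-1β organoid library with the 10x Genomics 3′ kit. The authors deposited raw UMI counts, for which the study's methods name Cell Ranger 2.0.2 and reference 1.2.0 (GRCm38); the labels also list mm9 and Scanpy 1.3.6. The deposited tables still hold stromal cells and barcodes outside the study's cutoffs. As in the study, cells needed over 500 and under 7000 genes and over 2000 UMIs. Counts were scaled to 10000 per cell, and 1480 highly variable genes without the 49 genes under study were reduced to 50 principal components with 15 neighbors (scanpy 1.11.5) and clustered by Leiden (leidenalg 0.10.2, resolution 1), first with stromal cells and then without. The study used Louvain, which was run as an alternative. Clusters were named by the marker list with the largest average log2 fold against all other epithelial cells (pseudocount 0.1), unless markers of another class led them. Doublets were not removed, since scrublet scores over 0.7 marked 3 cells (0.0583%).

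Levels are summed counts per 1000000 with exact Poisson intervals, ratios have exact conditional binomial intervals, and shares have Clopper-Pearson intervals, all at 95%. The upper limit for 0 counts was set at 3 counts. A gene was counted as different past a 2-fold ratio at 20 or more UMIs over both libraries. No test was possible with 1 library per condition. The calculation of ratios and intervals was checked on simulated counts. TMM factors came from edgeR 4.0.16 in R 4.3.3. The genes named are the 3 members, the Ceacam and Psg families, partner genes, the 10 genes on each side of each member, and for each member the genes with the highest and lowest correlation over cells. A result that names a withheld item, 1 of them among the partner genes, is not reported here. The members, lists and markers were chosen with earlier results of these data known.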

Additional observations from a re-analysis of the deposited data

How the results depend on the processing

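The alternatives changed the cell filter, doublets, clustering, scaling of counts, single cells and shared barcodes; leaving out the cell with the most UMIs and leaving out the shared barcodes were chosen after seeing the data. The log2 ratio in AT2-like cells stayed within its counting interval under 13 of 14 alternatives for Ceacam1 (1.09 to 1.49), 13 of 13 for Ceacam10 (7.29 to 8.77) and 11 of 13 for Cd177 (3.07 to 3.54). For Cd177 it was 2.81 with the 5% of cells of highest doublet score removed and 4.29 without the cell with the most UMIs in each library. Removing the 5% also redrew the classes, to 615 control and 1830 IL-1β AT2-like cells, with 324 control cells unnamed. The Cd177 UMIs in AT2-like cells were then 86 in control and 1378 in IL-1β. At Leiden resolution 0.5 the Ceacam1 value was -0.44, from 3 control AT2-like cells; 979 control cells were unnamed there, and Ceacam10 and Cd177, with 0 control UMIs, gave no value. The excess of cells with both Ceacam10 and Cd177 was 2.42 to 3.57 under all 12 alternatives. Genes past 2-fold in AT2-like cells were 1726 of 12403 (13.9%), but 891 of 9992 (8.92%) at 100 or more UMIs and 4806 of 16972 (28.3%) at 1 or more, where fewer or more genes were tested. With edgeR TMM factors they were 1685. Of the scalings, totals without surfactant, mitochondrial and ribosomal protein genes moved all log2 ratios most, by -0.12. No paired analysis was possible because each condition has 1 library. Precision is limited by low counts, such as the 2 control UMIs of Ceacam10 and the 26 control DATP-like cells, and by 1 library per condition.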

Other observations

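Cycling-like cells, 85 in control and 4 in IL-1β, were led by Ube2c, Birc5 and Top2a, genes of cell division. In the control library they held Cd177 at 11.6 CPM (7.10 to 17.9), 20 UMIs in 5 cells, of which 1 cell held 8. Control AT2-like cells stood at 6.90 CPM, with an overlapping interval. Without the AT2-like cell that held 41 Cd177 UMIs they stood at 3.54 CPM (2.56 to 4.77), which does not overlap. The cycling-like level still included its own highest cell, with 8 of the 20 UMIs. The classes were thus not treated alike, and no difference is read from this. Ceacam1 stood at 15.7 CPM (10.3 to 22.8) in control cycling-like cells, close to its 15.3 CPM in control AT2-like cells. Ceacam10 had 0 UMIs in control cycling-like cells, which allows up to 1.74 CPM. Of the 4 IL-1β cycling-like cells, 1 held all 19 Cd177 UMIs of the class. A control cluster of 74 cells led by Scgb1a1, Cckar and Sox2, which no class name fitted, held 9 Ceacam1 UMIs, 4 Cd177 UMIs in 1 cell and 0 Ceacam10 UMIs.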
